A study of Mus musculus with 12 samples.

Results

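The comparison set hearts that had both lost endothelial VEGFR1 and received VEGF-B against hearts with neither, so it measured the joint change made by a receptor loss and a ligand gain. It used 7 of the 12 hearts of the series, 4 combined hearts (VEGFR1del_VEGFB) and 3 control hearts (WT_Scramble), chosen by their titles alone. Of the 45281 probes of the array, the 20312 that passed a filter on detection entered it. Combined hearts came from adult male mice that carried Cdh5-Cre-ERT2 and Flt1 flox/flox, in which tamoxifen removes Flt1, the gene of VEGFR1, from endothelial cells. These mice also received AAV-VEGF-B, an adeno-associated virus injected into the peritoneum to raise VEGF-B in the heart. Control hearts were labelled WT and received AAV-Scramble, a virus with a scrambled sequence. The labels do not say whether the WT mice carried the floxed allele or the Cre driver, or whether they received tamoxifen. All mice were labelled male C57Bl/6J, and whole hearts were read on 1 bead array each. The other 5 hearts had 1 of the 2 manipulations, 2 with VEGF-B virus in wild type (WT_VEGFB) and 3 with the deletion and scramble virus (VEGFR1del_Scramble). They share the normalization and the estimate of the spread, and they are the reference for how the joint change relates to each manipulation alone.

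VEGFR1 sits on endothelial cells and has high affinity for placental growth factor, VEGF-B and VEGF-A, but signals weakly. It is known as a decoy that holds VEGF-A away from VEGFR2, the receptor that drives endothelial sprouting and proliferation. VEGF-B binds VEGFR1 and the co-receptor neuropilin-1 and does not bind VEGFR2. Loss of the receptor and excess of its ligand can therefore both free VEGF-A, and VEGF-B in the heart has also been tied to vessel growth and to fatty acid handling.

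The median probe signal per array ran from 98.7 to 111.5 over the 12 arrays, and 16685 to 18210 probes per array were detected. Cell markers fitted the label of whole heart. On all 7 arrays, 12 of 12 ventricular cardiomyocyte markers that had a probe, 19 of 22 general endothelial, 9 of 9 pericyte and 10 of 12 fibroblast markers were detected. Of adipocyte, mesothelial and lung epithelial markers, 0 of 6, 0 of 5 and 0 of 6 were detected on all 7 arrays, and 5, 4 and 5 on none. Erythroid markers were detected on all 7 arrays for 3 of 3, and skeletal muscle markers for 2 of 8. For neutrophil and for T and NK cell markers this was 0 of 8 and 0 of 10. The leading principal component carried 39.5% of the variance over all arrays and placed control hearts at -26.4 to -21.4 and combined hearts at 17.8 to 25.4. One library of another group went against its label, the library labelled VEGFR1del_Scramble replicate 3, whose Flt1 signal was 11.56. It entered the estimate of the spread and the comparison with the deletion alone, and both are given with and without it. In the table of normalized values that the authors deposited, the arrays fall into 3 sets that were each normalized separately. All control hearts are in 1 of these sets and all combined hearts in another, so a difference between sets and a difference between groups cannot be told apart. The sets are not stated to be batches, and the values below come from the table of signals that were not normalized. Nothing states more of the replicates than that each is a separate heart, and their number limits the precision.

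Flt1 was read first, because it checks the deletion. Probe ILMN_1227926 gave a normalized log2 signal of 10.79, 10.90 and 10.91 in control hearts and of 9.00, 9.36, 8.93 and 9.47 in combined hearts. Every combined heart lay below every control heart. The log2 fold change was -1.68 with a standard error (SE) of 0.57 and an adjusted p of 0.055, so Flt1 did not pass the threshold of 0.05 in the fit to all 12 arrays. Without the doubted library the estimate was -1.68 with an adjusted p of 1.93e-05. The dimmer probe ILMN_2732721 was detected in 3 of 3 control hearts and in 0 of 4 combined hearts. Whether either probe lies in the deleted exons is not given in the sources used here, and Flt1 transcript in cells other than endothelium is read as well.

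Among the other VEGF ligands and receptors, Nrp1 and Nrp2 passed as higher, the latter by 1 of its probes. Nrp1, the co-receptor of VEGF-A and VEGF-B, read 11.26, 11.31 and 11.36 in control hearts and 11.97, 11.96, 12.12 and 12.07 in combined hearts, a 1.65-fold rise (log2 0.72, SE 0.11, adjusted p = 0.000423). Nrp2, which also serves VEGF-C and semaphorins, was not detected in any control heart by probe ILMN_2480957 and was detected in all 4 combined hearts. The rise of this probe was at least 1.25-fold over the detection floor, taken on each array as the higher of the probe's own signal and the lowest signal of a detected probe (mean log2 signal 4.45 and 5.23, adjusted p = 0.00412). The probes of Nrp2 disagree, since ILMN_2766737, detected in 2 of 3 control and 2 of 4 combined hearts, read 4.70, 4.99 and 5.01 against 4.87, 4.82, 4.90 and 4.60. Vegfa fell, from 10.97, 10.91 and 10.69 to 10.40, 10.41, 10.05 and 10.57 (log2 -0.50, SE 0.16, adjusted p = 0.0444), and this call was lost under 10 alternative settings. Vegfb, the transferred ligand, read 12.72, 12.90 and 12.74 in control hearts and 12.59, 12.72, 12.58 and 12.43 in combined hearts (adjusted p = 0.138). This probe therefore showed no higher Vegfb signal, and whether it can read the transcript made from the virus is not given in the sources used here. The remaining members did not pass the test. Vegfd, a lymphatic growth factor, differed by 0.65 (adjusted p = 0.0678) and Flt4, the lymphatic receptor, by 0.40 (adjusted p = 0.0534), and without the doubted library both passed (adjusted p = 0.00586 and 0.0428), which made 4 of the 10 members higher and 2 lower. Kdr, which encodes VEGFR2, was detected in 1 of 3 control hearts and 2 of 4 combined hearts, too dim for its probe to measure a change. Pgf was as dim, and Vegfc differed by -0.11.

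Across all genes, 2994 of 14240 passed an adjusted p under 0.05 in limma. Higher in combined hearts were 1651 (11.6%) and lower 1343 (9.43%). No overlap between the groups was seen for 4462 genes (31.3%), among them 2865 of the called genes. Rises were larger than falls, since 289 called genes rose by more than 1 on the log2 scale and 46 fell by more than 1. The median change was 0.65 over the genes called higher and -0.48 over those called lower, and 1188 of the calls were of changes smaller than 0.5. The median over all genes was -0.03. Of the called genes, 55.1% were higher under quantile normalization, but 76.2% were (1876 higher, 586 lower) when arrays were scaled to a common median and 80.5% (2939 higher, 714 lower) in the authors' deposited values, where the median of all genes moved to 0.04 and 0.06. The share of small falls thus depends on the scaling. Without the doubted library, 3082 genes were called, 2919 of them the same.

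**Figure D1:**
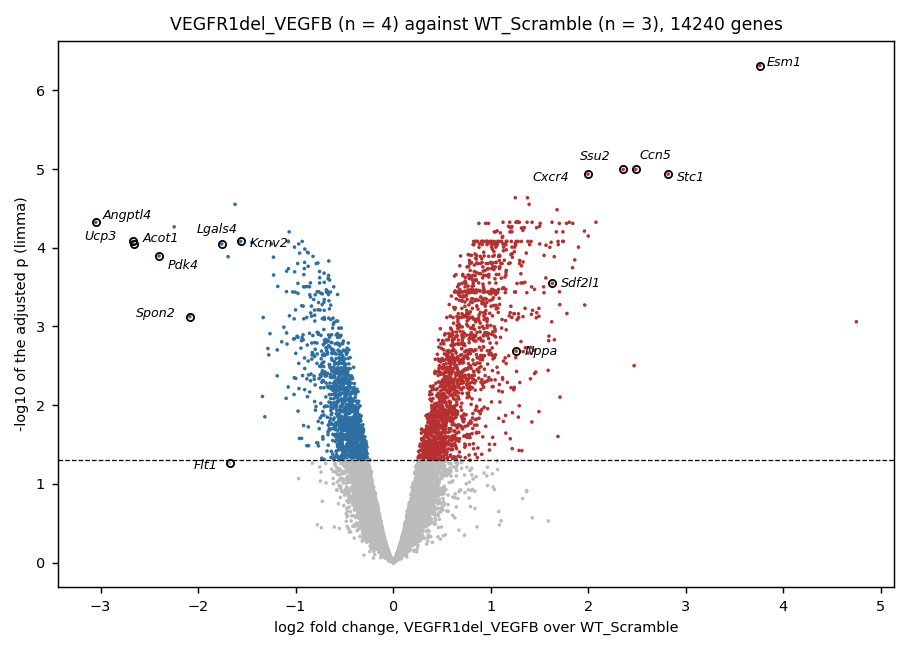
Each point is 1 of 14240 genes, by its log2 fold change of combined over control hearts (horizontal) and the -log10 of its adjusted p from limma (vertical), with the dashed line at 0.05, red points called higher and blue points called lower. Esm1 stands at the top, the fatty acid genes Angptl4, Ucp3, Acot1 and Pdk4 lie farthest to the left, Flt1 lies just under the line, and the unlabelled point at 4.75 is the unnamed probe ILMN_2476405.

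Esm1 rose more than any other named gene. It encodes endocan, a proteoglycan secreted by sprouting endothelial tip cells, and its log2 signal was 6.05, 5.98 and 5.67 in control hearts against 9.63, 9.80, 9.18 and 10.03 in combined hearts. This is a 13.6-fold rise (log2 3.76, SE 0.19, adjusted p = 4.84e-07). Stc1, the secreted glycoprotein stanniocalcin 1, read 5.58, 5.54 and 5.46 against 8.23, 8.54, 8.44 and 8.18, a 7.06-fold rise (SE 0.20 on the log2 scale, adjusted p = 1.16e-05). Ccn5, a secreted matricellular protein of the CCN family, read 7.88, 7.85 and 7.99 against 10.30, 10.52, 10.44 and 10.33, 5.61-fold higher (adjusted p = 1.01e-05). Ssu2 rose 5.13-fold, from 5.78, 5.87 and 6.25 to 8.30, 8.54, 8.18 and 8.27. Within each group these values lay much closer together than the distance between the groups.

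The rest of the 20 highest named genes rose between 3.23-fold and 4.23-fold. Several act in endothelial guidance and migration. Cxcr4, the chemokine receptor of tip cells, rose 3.99-fold from 5.23, 5.34 and 5.12 to 7.34, 6.90, 7.37 and 7.31. Unc5b, a netrin receptor of tip cells, rose 3.58-fold from 6.95, 6.62 and 6.63 to 8.77, 8.29, 8.57 and 8.68. The semaphorin Sema7a rose 3.50-fold, the protocadherin Pcdh17 4.00-fold, and Fscn1, which encodes the actin-bundling protein fascin of cell protrusions, 3.58-fold. Others encode secreted or matrix proteins, namely Nid2 (nidogen 2, 3.23-fold), Papln (papilin, 3.34-fold), Gdf10 (a TGF-beta family ligand, 3.26-fold) and Dkk3 (3.27-fold). Mest, an imprinted gene active in the fetus, rose 3.90-fold, from 5.00, 5.11 and 5.35 to 7.40, 6.95, 7.21 and 6.89. Csprs, Ift122, H2ac12, Il4i1, Kctd12b and Sez6l2 complete the 20. Csprs lies in a multicopy locus and H2ac12 in a histone gene family, so their probes may read close relatives. Where a gene had further probes, these moved the same way, with smaller sizes for Sema7a (0.51 on the log2 scale against 1.81), Kctd12b (0.72 and 1.33 against 1.78) and Pcdh17 (1.12 against 2.00).

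**Figure D2:**
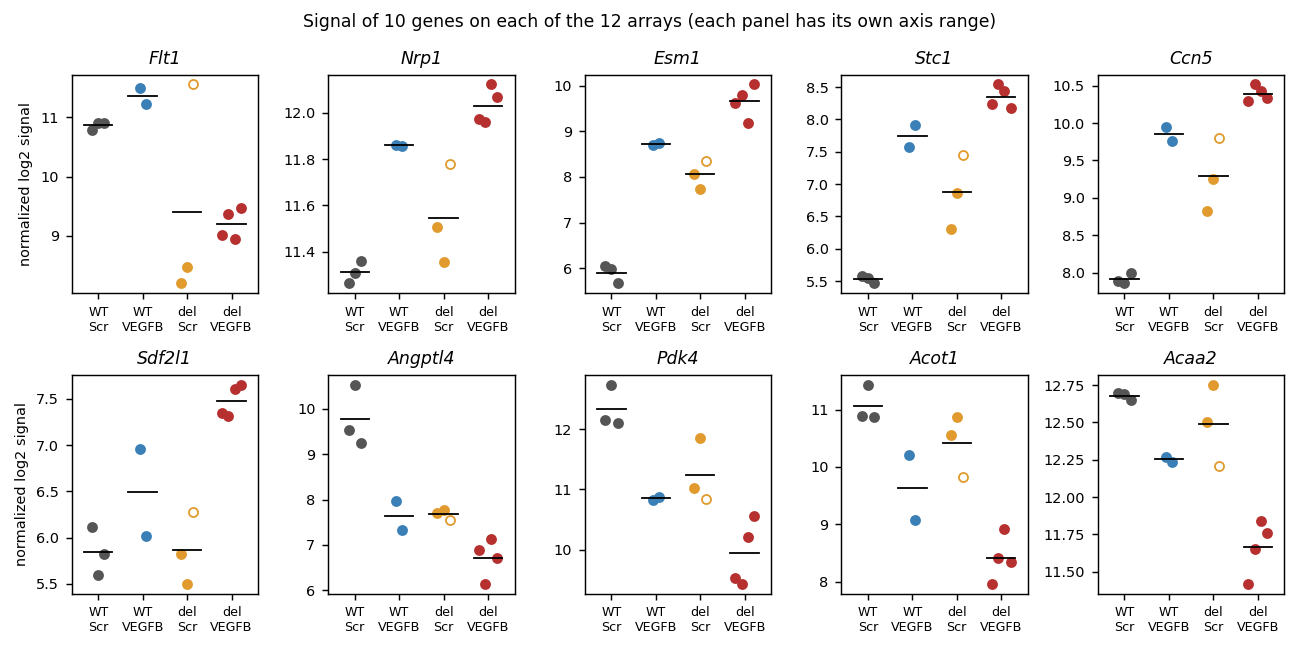
Normalized log2 signal of 10 genes on each of the 12 arrays, by group (WT or VEGFR1 deletion, scramble or VEGF-B virus), where points are hearts, bars are group means, and the open point is the doubted library of the deletion group. For Esm1, Stc1, Ccn5, Sdf2l1 and Nrp1 every combined heart lies above every control heart, and for Flt1, Angptl4, Pdk4, Acot1 and Acaa2 below.

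The highest change of all was that of a probe without a gene symbol, ILMN_2476405, which was singled out after its values were seen. It read 4.51, 4.74 and 4.74 in control hearts and 9.54, 9.63, 9.50 and 8.99 in combined hearts, at least 22.8-fold higher (log2 4.75, SE 0.77, adjusted p = 0.000872). It was just as dim in both WT_VEGFB hearts, at 4.50 and 4.70, and bright in VEGFR1del_Scramble replicates 1 and 2, at 8.78 and 8.94. The doubted library read 4.47. The probe was thus bright in every heart labelled as deleted except the one whose Flt1 signal went against its label.

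Endothelial genes rose as a broad group. The counts of this and all later lists are to be read beside the 11.6% of all genes called higher and the 9.43% called lower. Of 21 measured genes of the tip cell and sprouting list, 20 rose and none fell, with a median log2 change of 1.26 beside the median of -0.03 over all genes. Only placental growth factor (Pgf) did not pass. After Esm1, Cxcr4 and Unc5b, Mcam (a cell adhesion molecule) rose by 1.63 on the log2 scale (SE 0.15, adjusted p = 4.74e-05), Col18a1 by 1.62, Ednrb (an endothelin receptor) by 1.49, Pdgfb by 1.40 and Angpt2 by 0.90. Of 19 general endothelial markers, 17 rose, with a median of 0.99. Mmrn2, a ligand of the endothelial receptor CD93, read 9.94, 9.83 and 9.96 in control hearts and 11.13, 10.97, 11.05 and 10.99 in combined hearts (log2 1.13, adjusted p = 4.74e-05). Cd93 itself rose by 1.21, Icam2 by 1.04 and Esam by 1.12. Cldn5 and Fli1 did not pass. Of 15 markers of capillary, venous or arterial endothelium, 11 rose with a median of 0.77, led by the arterial genes Hey1 (1.65) and Gja4 (1.25), the venous and capillary apelin receptor Aplnr (1.38) and the capillary gene Gpihbp1 (1.05). In whole hearts, more cells of a type and more RNA per cell cannot be told apart.

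Notch signalling, which in vessels restrains tip cells and is set up between neighbouring endothelial cells, moved with them. Of 12 measured members 8 rose and none fell, with a median of 0.89. The ligand Dll4, carried by tip cells, rose by 0.88 and Jag2 by 0.54. Among receptors Notch4 read 9.74, 9.81 and 9.74 against 11.04, 11.04, 11.11 and 10.94 (log2 1.27, SE 0.11, adjusted p = 4.72e-05), Notch3 rose by 0.98 and Notch1 by 0.90. The target Hey1 rose 3.14-fold, from 8.76, 8.41 and 8.22 to 9.99, 10.23, 10.54 and 9.70, and the feedback inhibitor Nrarp 2.24-fold. Heyl, another target, rose by 0.93. Hes1 (0.29), Hey2 (0.02), Dll1 (0.13) and Maml1 (0.36) did not pass. General endothelial markers moved with these genes on every combined heart, where their mean change from the control mean was 0.87 to 1.00, against -0.04 to 0.07 in control hearts. Their part in the Notch and tip cell changes was not tested.

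Pericytes wrap capillaries and are recruited by endothelial PDGF-B. Of 9 pericyte markers 8 rose, with a median of 0.98. The PDGF-B receptor Pdgfrb read 7.42, 7.28 and 7.60 in control hearts and 8.90, 8.89, 8.64 and 9.01 in combined hearts (log2 1.42, SE 0.13, adjusted p = 4.74e-05), while Pdgfb rose from 9.70, 9.59 and 9.49 to 10.94, 10.88, 11.32 and 10.82 (log2 1.40, adjusted p = 9.12e-05). Kcnj8 (1.20), Higd1b (1.22) and Vtn (0.97) rose as well. Of 8 measured smooth muscle genes, none rose and 1 fell, Myh11, by 0.58 (adjusted p = 0.0384, lost in 10 alternatives, including both other scalings), while 2 rose in the authors' values and without control replicate 1. Fibroblast markers were mixed, with 2 of 11 higher and 3 lower, beside 11.6% and 9.43% of all genes, and a median of -0.09. Among them Mfap4 rose by 1.59 and Col1a1 by 0.92, and Gsn fell by 1.00 and Pdgfra by 0.55.

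**Figure D3:**
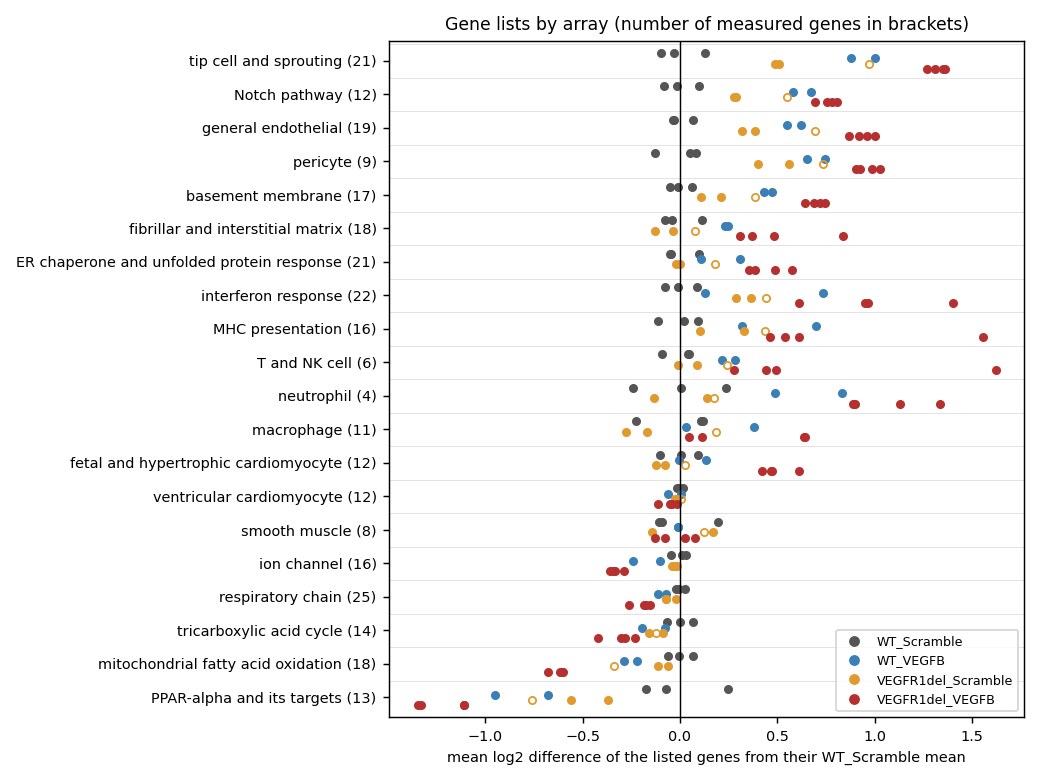
Mean log2 difference of the measured genes of 20 lists from their mean in control hearts (horizontal), for each of the 12 arrays, where colours are groups and the open point is the doubted library. Tip cell, Notch, endothelial, pericyte and basement membrane lists lie to the right in all 4 combined hearts, fatty acid oxidation and PPAR-alpha lists to the left, and smooth muscle and ventricular cardiomyocyte lists near 0. Replicate 3 of the combined hearts lies apart for MHC presentation (1.56) and T and NK cell genes (1.62).

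Genes of basement membrane, the sheet under endothelium that pericytes share, rose. Of 17 measured, 11 rose and 1 fell, with a median of 0.73. Collagen IV, its network former, rose in both abundant chains. Col4a1 went from 11.99, 11.99 and 11.79 to 13.42, 13.21, 13.23 and 13.15 (log2 1.33, SE 0.13, adjusted p = 6e-05), and Col4a2 from 11.69, 11.61 and 11.57 to 12.97, 12.76, 12.86 and 12.93 (log2 1.26, SE 0.12). Sparc, a collagen-binding protein, rose by 1.39 (adjusted p = 2.81e-05), Col15a1 by 1.24 and Hspg2, which encodes perlecan, by 0.70. The laminin chains differed among themselves. Lama4, the endothelial chain, rose by 0.73 and Lamc1 by 0.63, Lama5 fell by 0.47, and Lama2, the chain around cardiomyocytes, differed by -0.07 without passing. The direction and the call of these 17 genes' count (11 higher, 1 lower) were the same with each of the 7 hearts left out.

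Of 18 measured genes of fibrillar and interstitial matrix 10 rose and 1 fell, with a median of 0.54, and the count of rises dropped to 4 without control replicate 2 and to 5 without control replicate 3. The proteoglycan Bgn rose by 0.63 (adjusted p = 0.000606), Col6a1 by 0.64, Fn1 by 0.59, Eln by 0.99 and Timp1, an inhibitor of matrix proteases, by 1.20. The major fibrillar chains Col1a2 (0.33) and Col3a1 (0.29) did not pass. Col1a1 rose by 0.92 but lay wide, at 8.86, 7.70, 8.60 and 7.83 in combined hearts against 7.65, 7.00 and 7.33 in control hearts, and lost its call in 6 alternatives. Among matricellular genes and targets of TGF-beta and BMP signals, 6 of 15 rose and none fell. Besides Ccn5 these were Ccn2 (1.16), the BMP targets Id1 (1.21) and Id3 (0.86), and the ligands Tgfb1 (0.66) and Tgfb3 (0.58).

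Chaperones and folding enzymes of the endoplasmic reticulum (ER) also rose. Of 21 measured members of the ER chaperone and unfolded protein response list 10 rose and none fell, with a median of 0.39. The count was 6 without control replicate 2. Sdf2l1, an ER-resident chaperone partner, read 6.12, 5.60 and 5.83 in control hearts and 7.35, 7.31, 7.61 and 7.65 in combined hearts (log2 1.63, SE 0.22, adjusted p = 0.000283). The disulfide isomerase Pdia4 went from 7.59, 7.32 and 7.30 to 8.39, 8.27, 8.97 and 8.46 (log2 1.12, SE 0.16, adjusted p = 0.00033). Hspa5, the chaperone BiP, was not detected by its probe in any control heart and was detected in all 4 combined hearts, at least 1.27-fold higher (mean log2 signal 4.51 and 5.25, adjusted p = 0.00424). This probe lay near the detection floor, so the size of the change is uncertain. Over the alternatives its log2 change ran from 0.25 to 0.83. Creld2 rose by 0.72, Hsp90b1 by 0.65, Dnajc3 by 0.61, Syvn1, a ubiquitin ligase of ER-associated degradation, by 0.46 and Pdia3 by 0.45. Of the regulators, Xbp1 rose by 0.39 and Ddit3 by 0.64, while Atf4 (0.11), Atf6 (0.09) and Ern1 (-0.31) did not pass, nor did the ATF4 targets Asns (0.14) and Trib3 (0.27). When the doubted library was left out, Ddit3 lost its call (adjusted p = 0.0542) and Ern1 passed as lower (adjusted p = 0.0426), so the list had 9 members higher and 1 lower.

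These genes are known for the ER stress response element, CCAAT, then 9 bases of any kind, then CCACG, through which ATF6 with NF-Y acts. Promoters are shown because this element is common to many of the members that rose. In the RefSeq promoters of build GRCm38.p6, from 250 bases before to 50 after each gene's start, it was found on either strand for 7 of 19 measured members with a promoter (36.8%), against 37 of 27025 genes (0.137%). It was present in 5 of the 10 called members and in 2 of the 9 not called. A match is a run of letters and not a shown site, and the list is made of genes known for it. Each line gives the gene, its position and strand, and the sequence read 5′ to 3′ along the gene's strand, with the element in capitals (in reverse complement for Calr and Creld2) and 30 bases on either side.
Hspa5, chr2:34771995-34772073, plus strand: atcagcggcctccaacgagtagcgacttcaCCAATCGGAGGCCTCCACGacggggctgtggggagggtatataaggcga
Hsp90b1, chr10:86705608-86705686, minus strand: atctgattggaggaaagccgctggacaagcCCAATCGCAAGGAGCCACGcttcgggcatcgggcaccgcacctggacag
Dnajc3, chr14:118937797-118937875, plus strand: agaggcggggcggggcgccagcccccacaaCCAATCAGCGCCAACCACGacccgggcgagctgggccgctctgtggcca
Creld2, chr15:88819490-88819568, plus strand: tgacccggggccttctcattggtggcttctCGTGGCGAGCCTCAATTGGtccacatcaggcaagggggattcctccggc
Syvn1, chr19:6046502-6046580, plus strand: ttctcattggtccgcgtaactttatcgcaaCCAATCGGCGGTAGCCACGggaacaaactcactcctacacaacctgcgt
Pdia6 (not called), chr12:17266461-17266539, plus strand: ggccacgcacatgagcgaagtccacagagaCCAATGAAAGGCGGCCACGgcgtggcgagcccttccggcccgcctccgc
Calr (not called), chr8:84847045-84847123, minus strand: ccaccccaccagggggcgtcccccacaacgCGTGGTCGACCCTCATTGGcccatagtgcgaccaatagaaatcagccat
Hsp90b1, Dnajc3, Creld2 and Syvn1 rose by 0.65, 0.61, 0.72 and 0.46 on the log2 scale, respectively. Hspa5, undetected in control hearts, was read near the detection floor, with the bound and range given above. Pdia6 differed by 0.39 (adjusted p = 0.147) and Calr, which encodes calreticulin, by 0.59 (adjusted p = 0.0551). For Notch genes the RBPJ word GTGGGAA was in the promoter window of 0 of the 6 called members with a promoter and of 1 of the 3 not called. The share over all genes was 7.25%, at which 0 of 6 says little. A perfect direct repeat of AGGTCA with 1 base between, the ideal form of the PPAR element, was in 0 of 12 measured PPAR-alpha genes and 0 of 15 beta-oxidation genes with a promoter, against 0.0481% of genes, a share at which 0 of so few says little.

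Many genes of fatty acid use fell. Angptl4, an inhibitor of lipoprotein lipase, fell most, from a log2 signal of 9.54, 10.53 and 9.24 in control hearts to 6.88, 6.15, 7.13 and 6.71 in combined hearts, 8.28-fold lower (log2 -3.05, SE 0.28, adjusted p = 4.74e-05). Ucp3, the mitochondrial uncoupling protein of muscle, went from 7.61, 8.24 and 7.17 to 4.72, 4.87, 5.51 and 4.92 (log2 -2.67, SE 0.29). Acot1, a thioesterase that releases fatty acids from coenzyme A, went from 10.90, 11.43 and 10.87 to 7.96, 8.42, 8.91 and 8.34 (log2 -2.66, SE 0.30), and its near relative Acot2 fell by 1.28. Acot2 had further probes that differed by -0.10 and -0.09, so its probes disagree, and cross-reading between the Acot genes was not tested. Pdk4, the kinase that shuts pyruvate out of oxidation when fat is burnt, went from 12.15, 12.74 and 12.11 to 9.53, 9.43, 10.21 and 10.56 (log2 -2.40, SE 0.29, adjusted p = 0.000127). These 4 are known targets of PPAR-alpha, the nuclear receptor that fatty acids activate. Of 13 measured genes of the PPAR-alpha list 11 fell and none rose, with a median of -0.86. The transporter Slc27a1 fell by 1.07, Mlycd by 0.86, the lipid droplet proteins Plin5 by 0.70 and Plin2 by 0.63, and the coactivator Ppargc1a by 0.50.

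Mitochondrial beta-oxidation, which shortens fatty acids step by step, fell nearly throughout. Of 18 genes 17 fell, beside 9.43% of all genes, with a median of -0.60. The 18 did not overlap between the groups, which also held for 31.3% of all genes. Only Etfa, of the electron transfer flavoprotein, did not pass, at -0.20. The carnitine shuttle changed by -0.31 for Cpt1b, -0.56 for Slc25a20 and -0.58 for Cpt2. Of the acyl-CoA dehydrogenases, Acadl went from 10.63, 10.67 and 10.73 to 9.81, 9.77, 9.68 and 9.82 (log2 -0.91, SE 0.10, adjusted p = 0.000104), Acadvl fell by 0.61, Acads by 0.46 and Acadm by 0.35. The thiolase Acaa2, which catalyses the last step, went from 12.70, 12.69 and 12.65 to 11.42, 11.65, 11.84 and 11.76 (log2 -1.01, SE 0.13, adjusted p = 0.000202). Hadha, of the trifunctional protein, fell by 1.33 and its partner Hadhb by 0.40. For unsaturated chains, the isomerases Eci2 and Eci1 fell by 0.76 and 0.66 and the reductase Decr1 by 0.87. The direction was the same in all alternatives, with 14 to 17 genes lower when 1 of the 7 hearts was left out.

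**Figure D4:**
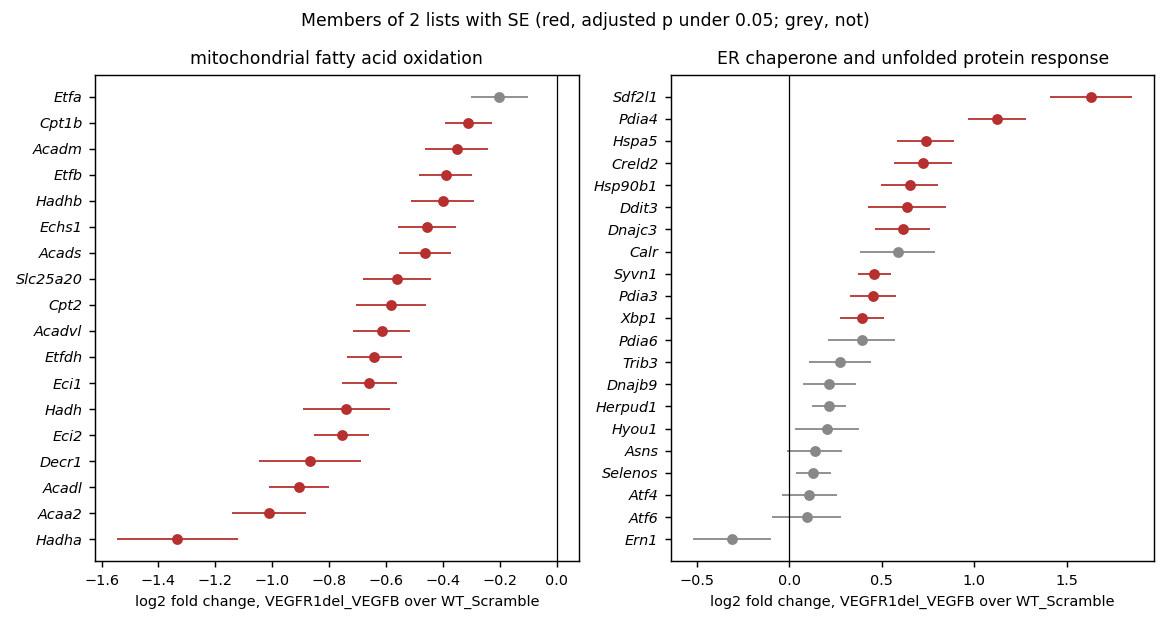
Log2 fold change of combined over control hearts with its SE for the 18 genes of mitochondrial fatty acid oxidation (left) and the 21 measured genes of the ER chaperone list (right), where red points passed an adjusted p of 0.05 and grey points did not. All 18 oxidation genes lie below 0, from -1.33 for Hadha to -0.20 for Etfa, and Sdf2l1 (1.63) and Pdia4 (1.12) lead the ER genes.

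Genes of fat uptake went both ways. Lpl, which encodes lipoprotein lipase, differed by 0.08 without passing, while Gpihbp1, its capillary anchor, rose from 10.15, 10.12 and 10.37 to 11.30, 11.17, 11.20 and 11.37 (log2 1.05, SE 0.12, adjusted p = 8.8e-05). The binding protein Fabp5, detected in 1 of 3 control hearts, read 5.11, 4.64 and 4.74 in control hearts and 6.00, 5.83, 5.70 and 5.85 in combined hearts (log2 1.02, adjusted p = 0.000457), and the carboxylesterase Ces1d fell by 1.25. Over the uptake list 2 of 17 rose, a share like the 11.6% of all genes, and 6 fell (3 fell without control replicate 1 or 2, and 4 rose without combined replicate 2). In glucose use 6 of 23 genes fell and none rose, with a median of -0.15, and 3 fell without control replicate 1 or 3. Fbp2, the muscle fructose bisphosphatase, fell by 1.69, Tbc1d4, which governs glucose transporter traffic, by 0.84, Ldhb by 0.67 and the insulin-responsive transporter Slc2a4 by 0.50. Most glycolytic enzymes did not pass, such as Gapdh (0.06) and Aldoa (-0.12). The tricarboxylic acid cycle had 8 of 14 genes lower and none higher (4 lower without control replicate 2), all by small amounts, such as Fh1 by 0.46, Cs by 0.44 and Mdh2 by 0.39. In the respiratory chain 6 of 25 fell, with a median of -0.18, but 1 to 3 did with 1 heart left out, and 11 and 13 did under median scaling and in the authors' values. The median was -0.60 for beta-oxidation, -0.33 for the cycle and -0.18 for the chain, and the differences between these lists were not tested. The mean change of ventricular cardiomyocyte markers was -0.11 to -0.02 on the 4 combined hearts and -0.01 to 0.02 on control hearts.

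The other large falls were of mixed kinds. Spon2, a secreted matrix protein, went from 9.85, 8.78 and 9.29 to 6.94, 7.08, 6.97 and 7.90 (log2 -2.09, SE 0.33, adjusted p = 0.00075). Lgals4, a galectin, went from 11.03, 10.94 and 10.26 to 8.96, 8.96, 9.25 and 8.77 (log2 -1.76, SE 0.20). The chemokines Ccl11 and Cxcl14 fell by 1.28 and 1.14, Alox5, which makes leukotrienes, by 1.34, the neurotrophin Bdnf by 1.23 and the resistin-like Retnla by 1.19. Dip2c, Tesmin, Tmem82 and Abhd1 fell by 1.45, 1.32, 1.26 and 1.19. Further probes of these genes also read lower but by less for Alox5 (-0.88 and -0.52), Lgals4 (-1.66 and -0.76), Bdnf (-0.66) and Abhd1 (-0.75 and -0.53).

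Among cardiomyocyte genes, some that stress induces rose and some of ion channels fell. Nppa, the atrial natriuretic peptide that stressed ventricles re-express, read 12.86, 12.48 and 12.66 in control hearts and 14.42, 13.53, 13.89 and 13.85 in combined hearts (log2 1.26, SE 0.23, adjusted p = 0.00206). Nppa and Dkk3, named above among the highest genes, are also 2 of the 3 measured atrial cardiomyocyte markers. The mean change of these 3 markers was 0.91 to 1.27 on combined hearts and -0.26 to 0.21 on control hearts. The part of atrial tissue in these changes was not tested. Nppb read 12.87, 11.85 and 13.55 against 13.98, 13.89, 13.73 and 14.05 (log2 1.15, SE 0.32, adjusted p = 0.0227), with control hearts spread over more than the difference between the group means, and its call was lost in 4 alternatives, among them without control replicate 2. Ankrd1, a stretch-responsive repressor, rose by 0.55 and lost its call under median scaling. Over the fetal and hypertrophic list 4 of 12 rose and none fell. The other riser was Ccn2, named above among the matricellular genes, and the sarcomere genes Myh7 (0.35), Acta1 (0.73) and Actc1 (0.06) did not pass. Of 16 contraction and calcium genes 3 fell, beside 9.43% of all genes. The list had a median of -0.06, with 8 members above 0 and 8 below. The 3 were Cacna1c by 0.47, Hrc by 0.40 and Pln by 0.36. Of these, Pln lost its call in 6 alternatives, Cacna1c in 3 and Hrc in none. Of 16 ion channel genes 7 were lower and 2 higher (4 lower without control replicate 2 and under median scaling). Kcnv2, a modifier subunit of potassium channels, went from 8.09, 8.57 and 8.00 to 6.73, 6.80, 6.63 and 6.47 (log2 -1.56, SE 0.17, adjusted p = 8.31e-05). Kcnd2 and its partner Kcnip2, which carry the transient outward potassium current of rodent heart, fell by 1.12 and 0.81, and the sodium channel subunit Scn4b fell by 0.98. Kcne1 and Kcna5 rose by 0.74 and 0.64, with 0 channels higher without control replicate 3 and 1 without control replicate 2 or combined replicate 1.

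Interferon-response genes rose in all 4 combined hearts. Of 22 measured 17 rose and none fell, with a median of 1.05. Oasl1 read 4.77, 4.53 and 5.21 in control hearts, where it was detected in 1 of 3, and 6.26, 6.39, 6.40 and 6.30 in combined hearts (log2 1.50, SE 0.17, adjusted p = 8.95e-05). Isg15, a ubiquitin-like modifier, rose by 1.45, Oasl2 by 1.30 and the RNA sensor regulator Dhx58 by 1.02. Both single groups also read above control for this list, with medians of 0.45 and 0.37. MHC presentation, induced by interferons, had 9 of 16 genes higher and none lower, with a median of 0.83 (4 higher without control replicate 2). H2-D1 read 10.98, 10.81 and 11.16 against 12.01, 11.91, 12.43 and 11.73 (log2 1.03, SE 0.18, adjusted p = 0.0013), B2m rose by 1.01 and the peptide transporter Tap2 by 0.73. The list's mean change was 1.56 in replicate 3 and 0.46 to 0.61 in the other combined hearts, and without replicate 3 its median was 0.62 with 9 genes higher.

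Leukocyte genes moved beside these, near the limit of detection. Of the 8 neutrophil markers with a probe, 0 were detected on all 7 arrays and 4 on none, and those measured passed the filter on detection partly through the hearts in which they are high, so no count of them is read. S100a9 was undetected in control hearts and at least 2.32-fold higher in combined hearts (mean log2 signal 4.58 and 6.12, adjusted p = 0.000372), Il1b at least 1.44-fold, and S100a8 read 4.78, 5.34 and 6.02 against 6.87, 7.23, 6.33 and 7.45. Of the 10 T and NK cell markers with a probe, 0 were detected on all 7 arrays and 3 on none, so their count is not read either. Ccl5 rose by 1.49 (5.06, 4.74 and 4.70 against 6.25, 5.74, 7.67 and 5.64). Cd3d rose at least 1.22-fold, a call that lay at the threshold and was lost in 15 alternatives. The mean change of the 6 measured T and NK cell markers was 1.62 in replicate 3 and 0.28 to 0.49 in the other 3. Replicate 3 is the same heart that stood apart for MHC genes. The part of infiltrating cells in the interferon and MHC changes was not tested. Of 11 macrophage markers 2 rose, Lgals3 by 1.24 and C1qa by 0.62, and the latter lost its call in 11 alternatives. Of 6 mast cell markers only Kit, which endothelial cells also carry, rose, by 1.15. These small macrophage and mast cell counts lie little above the 11.6% of all genes called higher.

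Of 17 cell cycle genes 7 rose and none fell, with a median of 0.39, including Ccnd1 (1.03), Tyms (0.84), Cdc20 (0.83) and Mcm6 (0.79). Hypoxia-inducible genes went both ways, 3 of 15 higher and 3 lower, beside 11.6% and 9.43% of all genes, with a median of -0.10. Among them the prolyl hydroxylases Egln3 and Egln1 were lower by 0.74 and 0.63, and Adm and Ndrg1 higher by 0.62 and 0.53. Of 11 secreted angiocrine factors and their makers, Pdgfb, the nitric oxide synthase Nos3 (1.16) and Igf2 (0.61) rose, and Angpt1, the pericyte-borne ligand that stabilises vessels, fell by 0.89, a call lost in 9 alternatives including both other scalings. In 15 immediate early genes the calls of Junb, Ier3 and Klf2, and among 12 clock genes those of Ciart (1.69) and Per1 (1.22), all had an adjusted p over 0.02. These counts moved both ways. Clock genes called higher numbered 6 without the doubted library, 7 (and 1 lower) with the 7 compared arrays alone, 5 under median scaling and in the authors' values, and 0 without combined replicate 2 or 3 or control replicate 3. Immediate early genes called higher numbered 6 with the 7 compared arrays alone and in the authors' values, and 0 without combined replicate 2 or 3 or control replicate 2 or 3. The hour of tissue collection is not given in the sources used here.

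The joint change was then set beside each manipulation alone. All 3 comparisons share the control hearts, so the values are given side by side and no likeness is drawn from them. Esm1 rose by 3.76 with both, and its change was 2.82 with VEGF-B virus alone and 2.16 with the deletion alone. For Stc1 these changes were 2.82, 2.21 and 1.34, and for Cxcr4 2.00, 1.34 and 1.33. Angptl4 changed by -3.05, -2.12 and -2.09, Pdk4 by -2.40, -1.49 and -1.09, and Acot1 by -2.66, -1.43 and -0.65. Without the doubted library the deletion alone gave 2.01 for Esm1, 1.06 for Stc1, 1.46 for Cxcr4, -2.02 for Angptl4, -0.89 for Pdk4 and -0.35 for Acot1. All 20 highest and all 20 lowest named genes, chosen for their joint change, lay farther from 0 with both manipulations than with either alone, also without that library. This is near the share of all calls, since 1574 of 1651 genes called higher and 1238 of 1343 called lower did so. Choosing genes by their joint change also favours this outcome. Over all genes called higher the median was 0.65 with both, 0.41 with the virus alone and 0.29 with the deletion alone, and over those called lower it was -0.48, -0.25 and -0.19. The medians for the deletion alone were 0.22 and -0.15 without the doubted library.

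**Figure D5:**
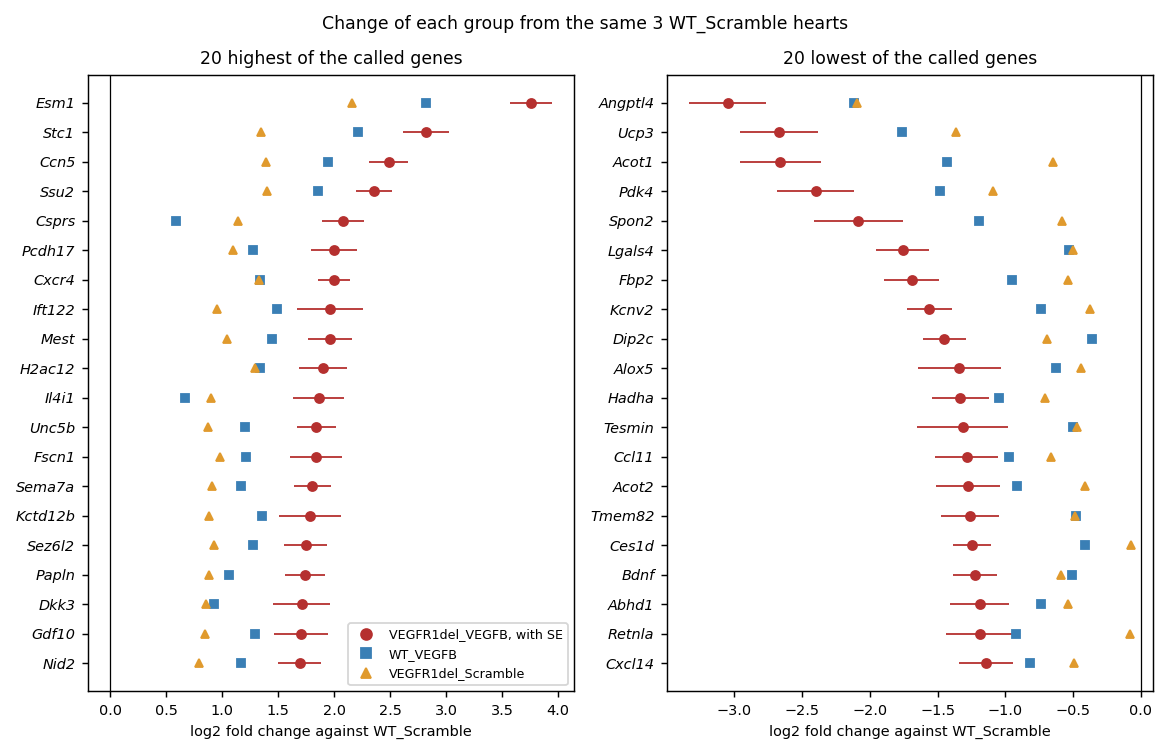
Log2 fold change against the same 3 control hearts for the 20 highest (left) and the 20 lowest (right) named genes, where circles are combined hearts with the SE, squares are VEGF-B virus in wild type and triangles are the deletion with scramble virus, the doubted library included. For each of the 40 genes the circle lies farthest from 0, which also holds for 1574 of 1651 genes called higher and 1238 of 1343 called lower. For Il4i1, Lgals4 and Ces1d squares and triangles lie much nearer to 0. Without the doubted library the triangles would stand at 1.32 for Csprs and -0.96 for Dip2c.

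The difference from the deletion alone was tested directly, in a contrast in which control hearts cancel. Combined hearts differed from VEGFR1del_Scramble hearts in 656 genes (4.61%), and 623 of these were also called in the joint change in the same direction. The latter number rests on single libraries, since it was 931 without that library, but 39 and 28 without VEGFR1del_Scramble replicate 1 or 2, and 232, 393 and 272 without combined replicate 1, 2 or 3. Acot1 was lower by 2.01 in combined than in deleted hearts (adjusted p = 0.00923), Sdf2l1 higher by 1.61 (adjusted p = 0.00834), Esm1 higher by 1.60 (adjusted p = 0.00474) and Ces1d lower by 1.17 (adjusted p = 0.00474). Among lists, 14 of 21 tip cell genes, 12 of 19 general endothelial markers and 10 of 17 basement membrane genes were higher in combined than in deleted hearts, and 10 of 18 beta-oxidation genes lower. These counts were 16, 15, 10 and 15 without the doubted library. For Sdf2l1 and Pdia4 the deletion alone gave 0.02 and 0.04 (-0.19 and -0.06 without the doubted library), and for Ces1d and Retnla -0.07 and -0.08 (-0.08 and 0.17).

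The difference from the virus alone was not resolved. Against the 2 WT_VEGFB hearts no gene was called in limma, with 1572 of 14240 at an unadjusted p under 0.05 and a smallest adjusted p of 0.0696, which was that of Csprs. Without the doubted library 6 genes were called, all of them also called in the joint change. Genes called in both numbered 7 to 91 with no background correction, an offset of 50, median scaling, the authors' values, a trended variance model or array weights, 1 without combined replicate 1, and 0 with another filter, the mean of a gene's probes, either block or any other heart left out. The beta-oxidation list had a median of -0.37 and the tip cell list of 0.38 in this contrast, beside 0.00 over all genes. With 2 hearts in that group, this does not show that the groups are alike.

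Whether the joint change departed from the sum of the single ones was tested by the interaction term, and no gene was called in limma. At an unadjusted p under 0.05 there were 718 of 14240, and without the doubted library 813 of 14116 with again 0 called. Both numbers are close to the share of 0.05 expected if no gene departed from the sum. Esm1 lay below the sum by 1.22 (adjusted p = 0.975) with a 95% interval from -1.85 to -0.59, unadjusted for the number of genes. For Sdf2l1 the joint change was above the sum by 0.97 (interval 0.22 to 1.72), and for Acot1 the departure was -0.59 (interval -1.59 to 0.42), or -0.88 without the doubted library. As a description, 18 of the 20 highest genes lay below the sum of their single changes, beside 972 of all 1651 genes called higher, but without the doubted library 14 of the 20 and 752 of the 1651 did. With that library 17 of 18 interstitial matrix genes and 17 of 21 ER genes lay above the sum, beside 679 of all 1651 genes called higher. Below the sum lay 16 of 18 beta-oxidation genes, beside 795 of all 1343 genes called lower. Without that library the list counts were 17, 16 and 16, beside 899 of 1651 and 868 of 1342. The lists also hold genes that were not called, and members of a list were read on the same few hearts, so they are not independent. None of these departures passed the test for any single gene, and on the scale used, log2 with an offset of 16, a sum is a product of fold changes.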

How the data were processed

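Probe signals (intensity, linear scale, neither normalized nor background-subtracted) with a detection p-value for each probe and array were deposited by the authors, per the file headers. A second deposited table holds log2 values, normalized in 3 sets as found from the values; it served as an alternative. The number of arrays limits the precision.

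Signals were background corrected from the detection p and then quantile normalized, with all 12 arrays together, by the neqc function (limma 3.58.1, R 4.3.3, offset 16). Of 45281 probes, 20312 with a detection p under 0.05 on at least 2 arrays entered. The platform annotation gave 34885 probes 1 symbol, 18 several and 10378 none, the last 2 kinds kept under their probe name, and the probe with the highest mean stood for a gene (14240 genes, 11009 with a symbol). One model with 4 group means was fitted (lmFit, eBayes), two-sided p-values got the Benjamini-Hochberg adjustment for all genes of each contrast, and calls were made under 0.05. The model was tested on simulated data. "At least" folds are set against the detection floor.

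The members, the 40 gene lists and the tests were chosen with earlier results of these data known. Of 579 listed genes 447 were measured, and some stand in several lists. Named are all VEGF ligands and receptors, the 20 highest and 20 lowest called genes whose groups do not overlap, and up to 4 called members of smallest p per list, with other members by their values. Lists got no test of their own. The B cell, erythroid, skeletal muscle and lung epithelial lists had 1 to 3 measured members and no call, and the adipocyte and mesothelial lists had none measured. Same-numbered hearts of the compared groups deviated with correlations of 0.06, 0.06 and 0.01, and the labels give no pairing. Alternatives for background, offset, scaling, filter, probe choice, variance model, weights, arrays, blocks and each heart left out are described at the end. Promoters are RefSeq's, build GRCm38.p6. Plots used matplotlib 3.10.9 (Python 3.11.15).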

Additional observations from a re-analysis of the deposited data

Results flagged for a closer look

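Among the 4 combined hearts, the highest or lowest value was tested against the gap expected in a group of 4, for 144 named genes and 38 lists. This picked out 10 of 182, and chance alone picks out about 1 in 20. Replicate 3 held the highest log2 signal of Tap2, at 10.26 against 9.81 to 9.83 in the others, the highest mean change of the MHC presentation list, at 1.56 against 0.46 to 0.61, and that of the T and NK cell list, at 1.62 against 0.28 to 0.49. It held the lowest value of the lung epithelial list, which has 1 measured gene, at -0.51 against 0.29 to 0.41. Replicate 1 was highest for Col6a1, at 10.93 against 10.60 to 10.65, and for the mean change of the fibroblast list, at 0.36 against -0.12 to -0.05, and lowest for Eci1, at 11.64 against 11.89 to 11.92. Replicate 4 was highest for Flt4, at 5.65 against 5.12 to 5.17, and for Spon2, at 7.90 against 6.94 to 7.08. Replicate 2 was lowest for Cxcr4, at 6.90 against 7.31 to 7.37. The cause was not tested.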

How the results depend on the processing

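The count of genes called in the joint change stayed within 1.5 times of 2994 under every setting tried, from 2135 without control replicate 2 to 3653 in the authors' values. Genes also called against WT_VEGFB, 0 as reported, numbered 63 without background correction, 26 with an offset of 50, 7 with median scaling, 91 in the authors' values, 77 with a trended and robust variance model, 9 with array weights, and 0 to 6 with 1 heart left out. Genes also called against VEGFR1del_Scramble, 623 as reported, numbered 1032, 960, 1610 and 974 under no background correction, the offset of 50, the authors' values and the trended model, and 28 to 931 with 1 heart left out. Departures from additivity numbered 0 to 1 with 1 heart left out, and 0 under the other settings. With the replicate number as a block, 2469 genes were called in the joint change and 356 of them also against VEGFR1del_Scramble, and the numbers do not pair the hearts. The set of arrays as a random block (correlation 0.01) called 2873. All control hearts lie in 1 set and all combined hearts in another, so this block cannot separate sets from groups. Only VEGFR1del_Scramble spans more than 1 set, through the doubted library, so the correlation rests on that library. Of 137 called named genes 109 kept their call under all alternatives and 114 with any heart left out, and 0 changed direction. Of 38 list medians 7 changed sign in some alternative, all near 0. Over all lists and settings, 106 medians moved by at least the standard deviation of the list's mean change among combined hearts. Over the alternatives the Notch median ran from 0.41 to 1.02, the interferon median from 0.70 to 1.19 and the cell cycle median from 0.14 to 0.46. The lowest value of each of these came without background correction. The causes were not tested.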
